A study of Mus musculus with 21 samples.

Results

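The genes described here are 30 genes of cholesterol and fatty acid synthesis, followed in microglia and infiltrating myeloid cells sorted from mouse brain after traumatic injury. They were chosen by gene symbol from the deposited table of 45706 genes, and all 30 were found and tested. The study asked how fibrin shapes the innate immune response to controlled cortical impact (CCI), an open-head model of traumatic brain injury. All mice were males of the C57BL/6 background aged 17 to 24 weeks, and wildtype (WT) animals were compared with Fgg γ390–396A mice, whose knock-in fibrinogen gamma chain makes a fibrin that clots but lacks the motif bound by the integrin CD11b/CD18. The 21 libraries form 7 groups of 3. Microglia, gated as CD45low CD11b+ cells, came from sham controls, which had anaesthesia, incision and craniotomy without impact, and, 1 d or 7 d post-CCI, from injured WT or Fgg γ390–396A animals. The titles of the sham samples name no genotype and no day, and the sham controls were taken as WT. Infiltrating myeloid cells, gated as CD45hi CD11b+ cells, came from both genotypes at 1 d post-CCI. Each library held cells of 2 pooled brains, 40000 cells for microglia and 25000 for infiltrating cells. No sham group was labelled as Fgg γ390–396A, so each genotype was set against the same 3 sham libraries at both times.

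Cells build cholesterol from acetyl-CoA. Acat2, Hmgcs1, Mvk, Pmvk, Mvd, Idi1 and Fdps make mevalonate and turn it into farnesyl diphosphate, and Fdft1, Sqle, Lss, Cyp51, Tm7sf2, Msmo1, Nsdhl, Hsd17b7, Ebp, Sc5d and Dhcr7 turn that into squalene, then lanosterol, then cholesterol. Acly supplies acetyl-CoA in the cytosol, Acaca makes malonyl-CoA, Fasn builds palmitate, Elovl6 lengthens it, and Scd1 and Scd2 introduce a double bond. The transcription factors Srebf2, for sterols, and Srebf1, mainly for fatty acids, switch these genes on when membrane sterol is low: Scap escorts the precursors out of the endoplasmic reticulum, and Insig1 and Insig2 hold Scap back when sterol is plentiful. Stard4 carries cholesterol between membranes. In the brain, which makes its own cholesterol behind the blood-brain barrier, astrocytes and oligodendrocytes are known as the main producers, and microglia and macrophages handle cholesterol from engulfed myelin.

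Libraries held 18896957 to 51875767 counts, of which 43.0% to 58.5% fell on ribosomal RNA genes. That share was 43.4% to 47.8% in sham microglia and, at 1 d, 50.6% to 58.5% in WT and 47.1% to 52.4% in Fgg γ390–396A microglia. The TMM scaling factors of edgeR were 1.39 to 1.55 in sham microglia, 0.741 to 1.11 in WT and 0.928 to 1.29 in Fgg γ390–396A microglia at 1 d. The scaling thus differed between sham and injured groups, and the differences between them depend on it. Levels are given as CPM, counts scaled to a common library size, with gene length already divided out in the deposited values, so levels can be set side by side between genes. The members were expressed at low to middling levels: group means in sham microglia ran from 0.194 CPM for Elovl6 to 17.4 CPM for Ebp, with 3 members under 1 CPM and 5 over 10 CPM. All 30 had counts in every library, where 3 counts, taken as the smallest dependable signal, equal 0.0448 to 0.158 CPM. Because gene length is divided out, 3 counts are not 3 reads, so these floors are a rough guide and leave out other error. Scd1 in replicate 3 of Fgg γ390–396A microglia at 1 d had 2 counts, as did Elovl6 in replicate 1 of WT microglia at 7 d. The summed level of 10 microglia markers was 10820.2 to 12057 CPM in sham microglia and 366 to 996 CPM in infiltrating cells. At 1 d it was 2882 to 4550 CPM in WT and 5125 to 6745 CPM in Fgg γ390–396A microglia. At 7 d it was 6346 to 7211 CPM and 7509 to 8722 CPM, so the genotypes did not overlap at either time. The infiltrating cells held 2491 to 12941 CPM of 9 neutrophil markers and 804 to 1255 CPM of 8 monocyte markers. They also held 1003 to 1910 CPM of 5 border macrophage markers, so that gate contained transcripts of all these lists. Fgg itself had 1 to 14 counts in 7 of 9 Fgg γ390–396A libraries and none in the 12 WT and sham libraries, and a gene count cannot show the altered codons.

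In WT microglia 1 d after injury, 11 of the 30 members were higher than in sham controls and 0 were lower, by the quasi-likelihood test of edgeR, adjusted after Benjamini-Hochberg over all 23815 genes tested, with a threshold of 0.05. Of all genes tested, 10.7% were called higher in this comparison. The called members spanned the pathway: Idi1 and Fdps, Sqle and Hsd17b7, the regulators Srebf1, Srebf2 and Insig1, the carrier Stard4, and the fatty acid enzymes Acaca, Fasn and Scd2. The median log2 fold change of the 30 members was 0.77, against 0 over all genes, and 28 members had a positive value. Of all genes 42.6% had a positive value, and the rest were negative or exactly 0. The median of all genes was -0.09 with edgeR's stricter count filter. With DESeq2's size factors the medians were 0.67 for the members and -0.05 for all genes. Acly and Tm7sf2 then turned to values just under 0.

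Sqle, squalene epoxidase, the first oxygen-adding step of sterol synthesis, had 0.797, 1.4 and 1.43 CPM in the 3 sham libraries and 5, 6.77 and 5.5 CPM in the WT libraries at 1 d. Every injured library was above every sham library, and the log2 fold change was 2.24 ± 0.33 (SE), adjusted p = 6.29e-05. Srebf1 had 4.69, 6.04 and 5.23 CPM in sham controls and 20, 16.1 and 26.5 CPM at 1 d. Its log2 fold change was 1.97 ± 0.32 (SE), adjusted p = 0.000168, again without overlap between groups. Scd2, a stearoyl-CoA desaturase that is abundant in brain, went from 14.8, 13.6 and 14.2 CPM to 20.7, 27.2 and 31.8 CPM. The difference was smaller but the sham libraries lay close together, and the log2 fold change was 0.91 ± 0.23 (SE), adjusted p = 0.00811.

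The mevalonate branch gave called and uncalled members. Fdps, farnesyl diphosphate synthase, had 2.04, 1.86 and 2.49 CPM in sham controls and 5.65, 5.46 and 5.7 CPM at 1 d (log2 fold change 1.39 ± 0.36 (SE), adjusted p = 0.00912). Idi1, which isomerises the first isoprene unit, had 1.02, 2.73 and 2.54 CPM and 4.39, 5.28 and 5.97 CPM (log2 fold change 1.31 ± 0.40 (SE), adjusted p = 0.0265). Both genes were above the sham range in each injured library. Hmgcs1, which makes HMG-CoA at the head of the branch, did not pass: it had 5.55, 5.73 and 8.52 CPM in sham controls and 6.68, 8.97 and 6.28 CPM at 1 d, with overlapping groups and a log2 fold change of 0.15 ± 0.22 (SE), adjusted p = 0.744. Beyond Sqle, the sterol branch gave 1 further call, Hsd17b7, a sterol ketone reductase, at 0.606, 1.63 and 1.56 CPM and 3.09, 4.27 and 4.06 CPM (log2 fold change 1.59 ± 0.46 (SE), adjusted p = 0.022). Cyp51, lanosterol demethylase, had 3.6, 4.59 and 4.25 CPM and 5.8, 8.1 and 4.92 CPM, which did not overlap, but its adjusted p was 0.162.

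Among the regulators, Srebf2 had 2.71, 3.64 and 4 CPM in sham controls and 4.96, 7.56 and 6.56 CPM at 1 d (log2 fold change 0.88 ± 0.23 (SE), adjusted p = 0.0103). Insig1 had 3.54, 7.63 and 5.91 CPM and 9.31, 13.5 and 10.6 CPM (log2 fold change 0.97 ± 0.30 (SE), adjusted p = 0.0332). Stard4 was scarce in sham controls at 0.319, 0.493 and 0.779 CPM and had 2.25, 2.21 and 1.33 CPM at 1 d (log2 fold change 1.85 ± 0.52 (SE), adjusted p = 0.0161). For these 3 genes too, the lowest injured library exceeded the highest sham library. Insig2, the partner of Insig1 in holding Scap back, and Scap itself were not called, with log2 fold changes of 0.52 and -0.18.

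In fatty acid synthesis, Fasn had 1.24, 0.873 and 4.35 CPM in sham controls and 6.26, 7.53 and 7.41 CPM at 1 d. One sham library was well above the other two, but still below the injured libraries, and the log2 fold change was 1.70 ± 0.52 (SE), adjusted p = 0.0276. Without that library, sham replicate 3, it was 2.73, and the call was lost without any of 4 others of the 6 libraries. Acaca, acetyl-CoA carboxylase, had 1.4, 3.26 and 2.06 CPM and 5.95, 8.58 and 5.46 CPM (log2 fold change 1.57 ± 0.41 (SE), adjusted p = 0.011). Acly, the step before it, had 13.8, 12.2 and 20.2 CPM and 15.8, 16.2 and 16.6 CPM, a log2 fold change of 0.07 ± 0.22 (SE), adjusted p = 0.938. The groups overlapped for Acly and not for Acaca. Scd1, the other desaturase, was at or below 0.607 CPM in sham controls and microglia at 1 d, with a log2 fold change of -0.83 ± 0.85 (SE), adjusted p = 0.568.

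**Figure D1:**
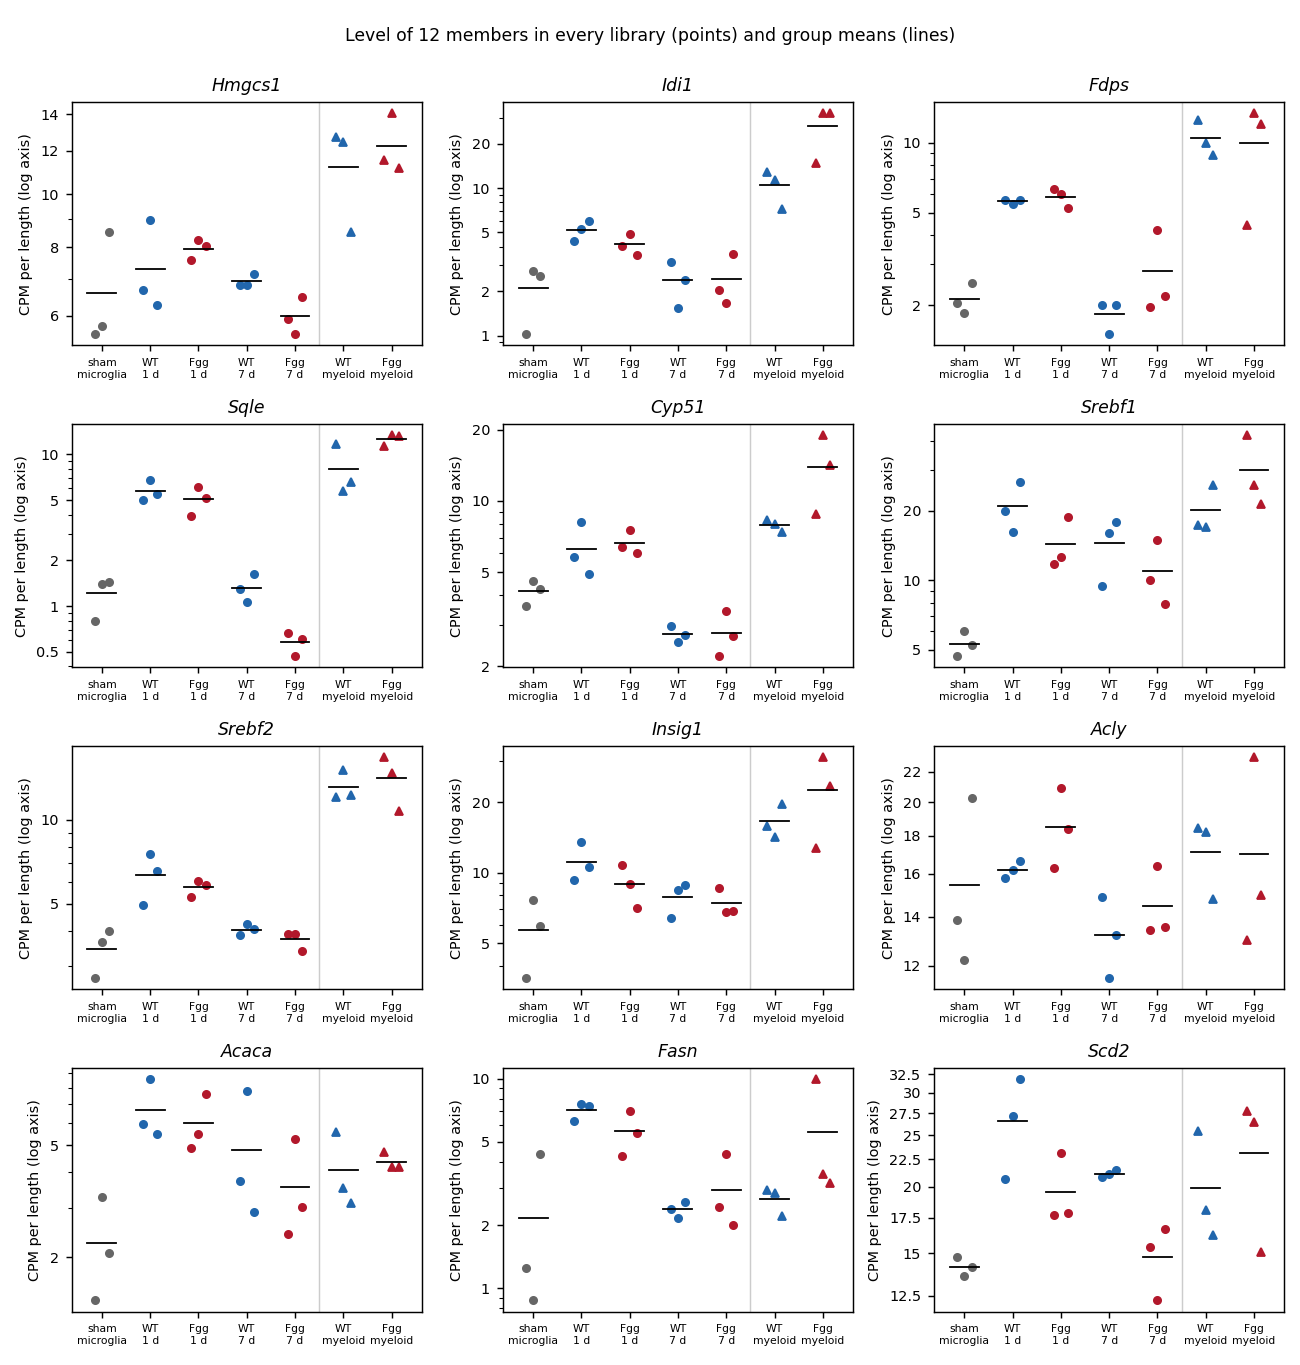
CPM with gene length divided out (log axis) of 12 members in every library, with circles for microglia, triangles for infiltrating myeloid cells at 1 d, grey for sham controls, blue for WT, red for Fgg γ390–396A, and lines for group means of 3 libraries. Sqle stood at 0.797 to 1.43 CPM in sham controls, 5 to 6.77 CPM in WT microglia at 1 d and 0.467 to 0.666 CPM in Fgg γ390–396A microglia at 7 d, while Acly overlapped between sham controls and injured groups.

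The count in WT microglia at 1 d leaned on single libraries. It was 4 without sham replicate 1, which had the lowest sham value for Sqle, Idi1, Hsd17b7, Insig1, Srebf2 and Stard4, 6 without WT replicate 2 and 7 without WT replicate 3, and it was 5 when only the 2 groups were fitted. Calls over all genes fell too, from 3970 to 3035, 2939 and 2810 without these libraries in turn, and to 3885 with the 2 groups. Sqle, Srebf1, Scd2 and Fdps were called whichever library was left out, while Insig1 was lost in 4 of 6 such fits, Idi1 and Hsd17b7 in 3, Acaca and Stard4 in 2 and Srebf2 in 1. Neutrophil markers summed to 1.91 to 628 CPM in sham microglia and 123 to 773 CPM in WT microglia at 1 d, and 10 genes of the response to cell dissociation summed to 108 to 863 CPM and 300.1 to 400.1 CPM. Astrocyte markers summed to 44.9 to 54.2 CPM in sham microglia and 13.5 to 21.5 CPM in WT microglia at 1 d, and oligodendrocyte markers to 25.3 to 32.1 CPM and 24.8 to 47.5 CPM. The part of these cells and genes in the result was not tested. In bulk libraries, fewer cells of a type and less RNA per cell cannot be told apart.

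Because members of this pathway share known promoter elements, the promoters were searched in the RefSeq table for GRCm38.p6, in windows of 250 bases before and 50 bases after each start. Of the members, 24 had windows, 32 in all; Fdft1, Fdps, Scd1, Scd2, Sqle and Stard4 had none. The letters CCAAT, the core bound by NF-Y, a factor that works beside the SREBP proteins, were present on either strand in 20 of 24 members (83.3%) and in 41.1% of the 27025 genes of the table. The E-box CACGTG was found in 5 of 24 members (20.8%) against 8.09% of genes, and the sterol regulatory element core TCACNCCAC in 1 of 24 members, Hmgcs1, against 1.44% of genes. Genes with several windows had more chances of a match, and a gene's overlapping matches were counted once. The sites below are shown for the 5 members called in WT microglia at 1 d that had a CCAAT site outside any annotated gene, and for the sterol element of Hmgcs1; each runs 5′ to 3′ on the gene's strand, with the matched letters (CCAAT, its reverse complement ATTGG, or the sterol element) in capitals.
Srebf1 (chr11:60222723-60222767, minus strand): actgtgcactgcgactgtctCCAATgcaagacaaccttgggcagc
Srebf2 (chr15:82147114-82147158, plus strand): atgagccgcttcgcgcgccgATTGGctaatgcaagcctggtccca
Insig1 (chr5:28071176-28071220, plus strand): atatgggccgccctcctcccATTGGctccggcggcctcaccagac
Hsd17b7 (chr1:169969254-169969298, minus strand): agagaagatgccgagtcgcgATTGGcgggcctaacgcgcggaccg
Fasn (chr11:120824613-120824657, minus strand): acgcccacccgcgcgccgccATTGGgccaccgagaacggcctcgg
Hmgcs1 (chr13:119690194-119690242, plus strand): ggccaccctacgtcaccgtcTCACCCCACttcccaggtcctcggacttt
Counted from the RefSeq start on which each window was set, these matches began 166, 135, 216, 73, 90 and 137 bases upstream, in the order shown. Hmgcs1, with the one match to the sterol core, was among the members that were not called in any comparison. Only exact matches inside these windows were counted, so variant or more distant elements would be missed. The lack of a match thus does not show that a member lacks a sterol element. A match of letters is a description of the sequence and not a measured binding site.

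In Fgg γ390–396A microglia at 1 d, 5 members were higher than in the same sham controls and 0 were lower, against 7.6% of all genes called higher. The 5 were Sqle, Srebf1, Fdps, Acaca and Srebf2, and all 5 were also called in WT microglia, a comparison that shares its sham libraries. The median log2 fold change of the members was 0.67, against 0 over all genes, and 28 of 30 were positive. Of all genes 45.2% were positive, and their median was -0.07 with the stricter filter. Sqle had 3.92, 6.12 and 5.18 CPM (log2 fold change 2.06 ± 0.33 (SE), adjusted p = 0.000259), Srebf1 had 11.7, 12.6 and 18.8 CPM (1.43 ± 0.31 (SE), adjusted p = 0.00452) and Fdps had 6.32, 5.99 and 5.26 CPM (1.46 ± 0.36 (SE), adjusted p = 0.0103). All these values lay above the sham range. Acaca had 4.86, 5.46 and 7.59 CPM (log2 fold change 1.41 ± 0.41 (SE), adjusted p = 0.033), and Srebf2 had 5.3, 6.04 and 5.87 CPM (0.73 ± 0.23 (SE), adjusted p = 0.0486). The members called in WT microglia alone included Fasn, at 4.27, 7.02 and 5.5 CPM with 1 library inside the sham range and an adjusted p of 0.116, and Idi1, at 4.07, 4.88 and 3.5 CPM with an adjusted p of 0.144. The difference between genotypes at 1 d was tested directly and is given further on. When single libraries were left out, the Srebf2 call was lost in 6 of 6 fits, that of Acaca in 4 and that of Fdps in 1. Without sham replicate 1 or 2, or without Fgg γ390–396A replicate 2 or 3, the count was 3, and with DESeq2's size factors it was also 3. Over all genes these fits called 1718, 1667, 1452 and 1476 in turn, and 2285 with those size factors, against 2333. In the whole table, 77.6% of called genes were higher in this comparison, and 65.2% with those size factors.

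By 7 d post-CCI few members differed from sham controls. In WT microglia, 1 member was higher than in sham controls, Srebf1, and 0 were lower, against 2.42% of all genes called higher. Srebf1 had 9.46, 16.1 and 17.9 CPM (log2 fold change 1.45 ± 0.31 (SE), adjusted p = 0.0124), still above the sham range in every library. That call was lost without sham replicate 1, WT 7 d replicate 2 or WT 7 d replicate 3, where the count was 0. Over all genes these fits called 361, 431 and 417 in turn, against 640. The members' median log2 fold change was 0.14 against 0 over all genes, but -0.07 without sham replicate 1, 0.06 without WT 7 d replicate 3 and 0.30 without sham replicate 3, so its direction rested on single libraries. In Fgg γ390–396A microglia edgeR called 0 members, where 0.886% of all genes were called in either direction. An unadjusted p under 0.05 was found for 3 members, against 7.59% of all genes, and DESeq2's test also called 0. The median was 0.09, or -0.03 without sham replicate 1 and 0.19 without sham replicate 2. Srebf1 had 10, 14.9 and 7.92 CPM, with a log2 fold change of 1.04 ± 0.31 (SE), adjusted p = 0.181. Sqle had 0.666, 0.467 and 0.609 CPM, all below the sham libraries, with a log2 fold change of -1.05 ± 0.34 (SE), adjusted p = 0.24.

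The contrast of 7 d with 1 d did not compare against sham controls, although their libraries were part of the fit. In WT microglia, 5 members were lower at 7 d than at 1 d and 0 were higher, against 6.6% of all genes called lower. These were Sqle, Fdps, Cyp51, Acat2 and Sc5d. The median log2 fold change of the members was -0.55, against 0 over all genes, and 27 of 30 were negative, of which Hmgcs1 turned positive with DESeq2's size factors. Of all genes 49.9% were positive, and their median was 0.09 with the stricter filter. Sqle had 1.29, 1.06 and 1.62 CPM at 7 d (log2 fold change -2.12 ± 0.33 (SE), adjusted p = 0.000266), Fdps had 2.01, 1.5 and 2.01 CPM (-1.61 ± 0.36 (SE), adjusted p = 0.00581) and Cyp51 had 2.96, 2.52 and 2.71 CPM (-1.20 ± 0.28 (SE), adjusted p = 0.00756). Cyp51 at 7 d was below the sham libraries as well as the libraries at 1 d. Acat2, the thiolase that joins acetyl-CoA units, had 3.4, 4.7 and 2.73 CPM at 1 d and 1.58, 0.366 and 0.541 CPM at 7 d (log2 fold change -2.13 ± 0.54 (SE), adjusted p = 0.013). Sc5d, a late sterol desaturase, had 7.29, 10.7 and 13.2 CPM at 1 d and 5.73, 5.93 and 5.49 CPM at 7 d (-0.87 ± 0.27 (SE), adjusted p = 0.0477). The Sc5d call was lost in 5 of 6 fits that left out 1 library, and the Acat2 call in 3 of 6, with an Acat2 log2 fold change of -3.04 without WT 7 d replicate 1. The count was 3 without WT 1 d replicate 2 or WT 7 d replicate 2, and 9 when only microglia libraries were fitted or when DESeq2's test was used, which called 16.4% of all genes in either direction. Over all genes the fits without those libraries called 1686 and 1704, and the fit of microglia libraries called 3658, against 2453.

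In Fgg γ390–396A microglia, 2 members were lower at 7 d than at 1 d, against 4.56% of all genes, and 0 were higher. Sqle had the larger change, from 3.92, 6.12 and 5.18 CPM to 0.666, 0.467 and 0.609 CPM (log2 fold change -3.11 ± 0.35 (SE), adjusted p = 4.16e-05). Cyp51 went from 6.35, 7.5 and 6.03 CPM to 2.2, 3.41 and 2.69 CPM (-1.26 ± 0.28 (SE), adjusted p = 0.00875). Neither gene overlapped between times. The median of the members was -0.60, against 0 over all genes, and 28 of 30 were negative, of which Elovl6 and Insig2 turned positive with DESeq2's size factors. Of all genes 49.1% were positive, and their median was 0.09 with the stricter filter. All 11 sterol enzymes had negative values in both genotypes, and this held with DESeq2's size factors and with TMM factors computed without ribosomal RNA genes. The count was 1 without Fgg γ390–396A 1 d replicate 2 or 7 d replicate 1, and 4 with microglia libraries only or DESeq2's test, which called 9.93% of all genes. Over all genes the fits without those libraries called 592 and 775, and the fit of microglia libraries called 1988, against 1343. Of all called genes, 19.1% were higher at 7 d, and 30.3% with DESeq2's size factors.

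**Figure D2:**
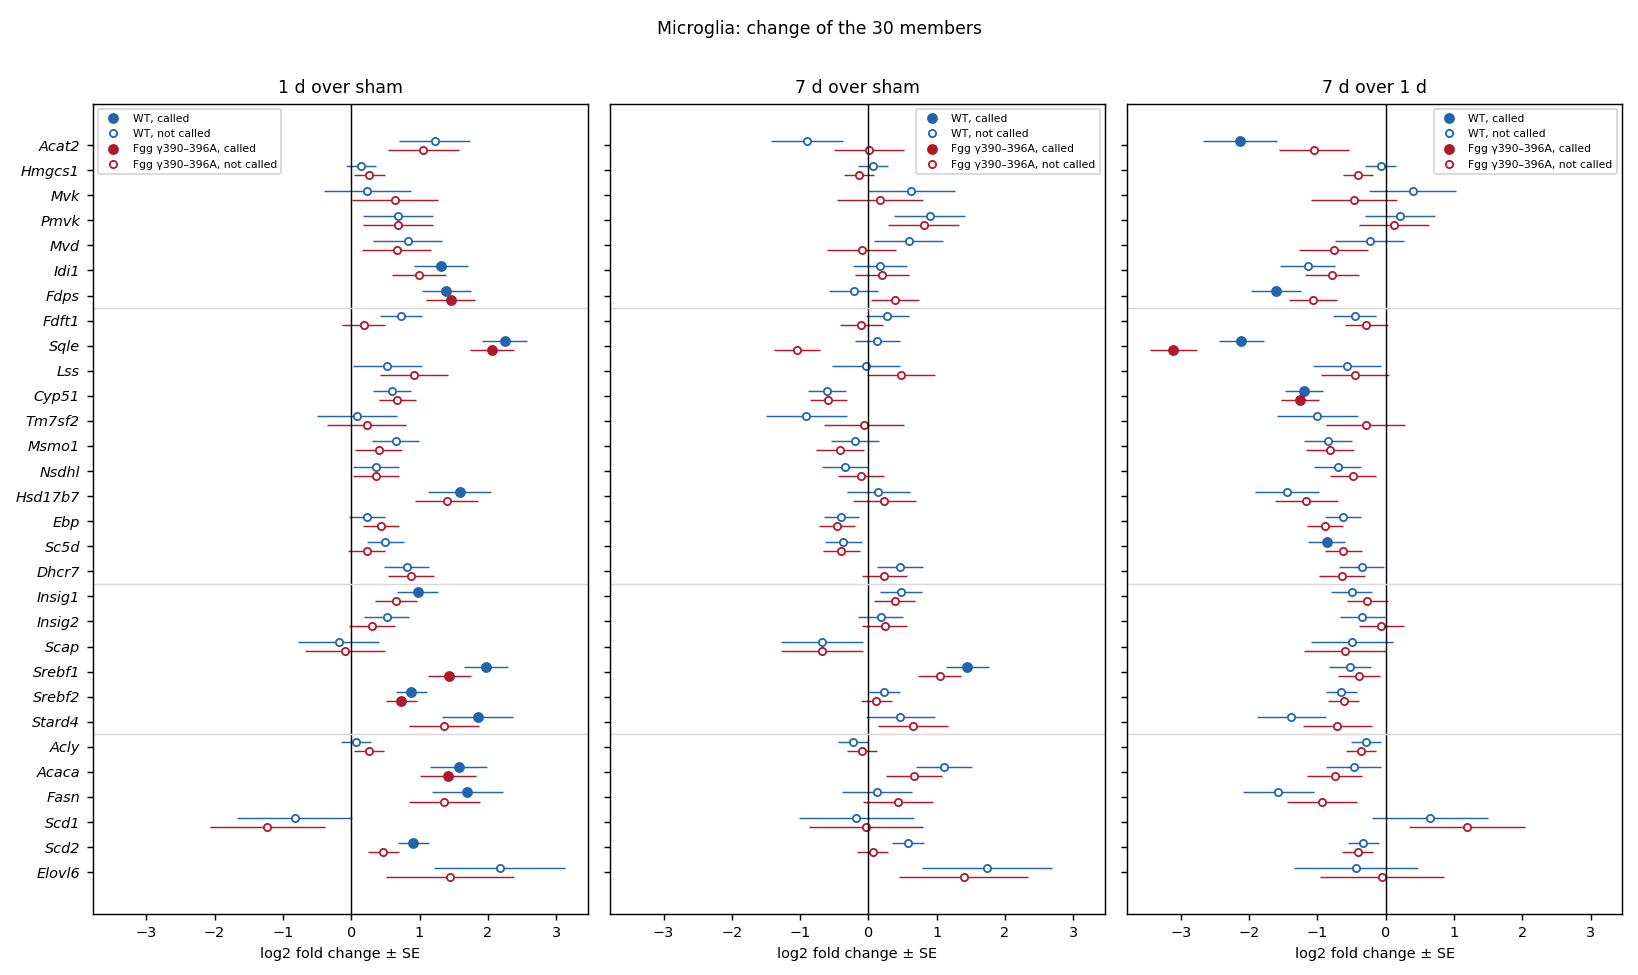
Log2 fold change with its standard error for the 30 members in microglia, in 3 panels (1 d over sham, 7 d over sham, 7 d over 1 d), for WT in blue and Fgg γ390–396A in red, with filled points for members called at an adjusted p under 0.05. Filled points lie to the right of 0 at 1 d and to the left in the last panel, and the 7 d panel has a single filled point, Srebf1 in WT.

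Summed over each branch, the levels followed the same course. The 7 mevalonate enzymes held 15.2 to 20.8 CPM in sham microglia, 28.6 to 34.5 CPM in WT and 28.3 to 34.4 CPM in Fgg γ390–396A microglia at 1 d, and 19.4 to 25.6 CPM and 18.4 to 22.4 CPM at 7 d. The 11 sterol enzymes held 56.6 to 69.3 CPM in sham controls, 80.3 to 103 CPM and 82.6 to 101 CPM at 1 d, and 42.8 to 60 CPM and 45.5 to 57.2 CPM at 7 d. For both branches every library at 1 d was above every sham library and every library at 7 d. The 6 fatty acid enzymes held 30.9 to 41.4 CPM in sham controls, 49.9 to 62.7 CPM and 44 to 57.7 CPM at 1 d, and 40.9 to 45 CPM and 34.8 to 38.7 CPM at 7 d. The abundant Acly and Scd2 make up much of that last sum.

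**Figure D3:**
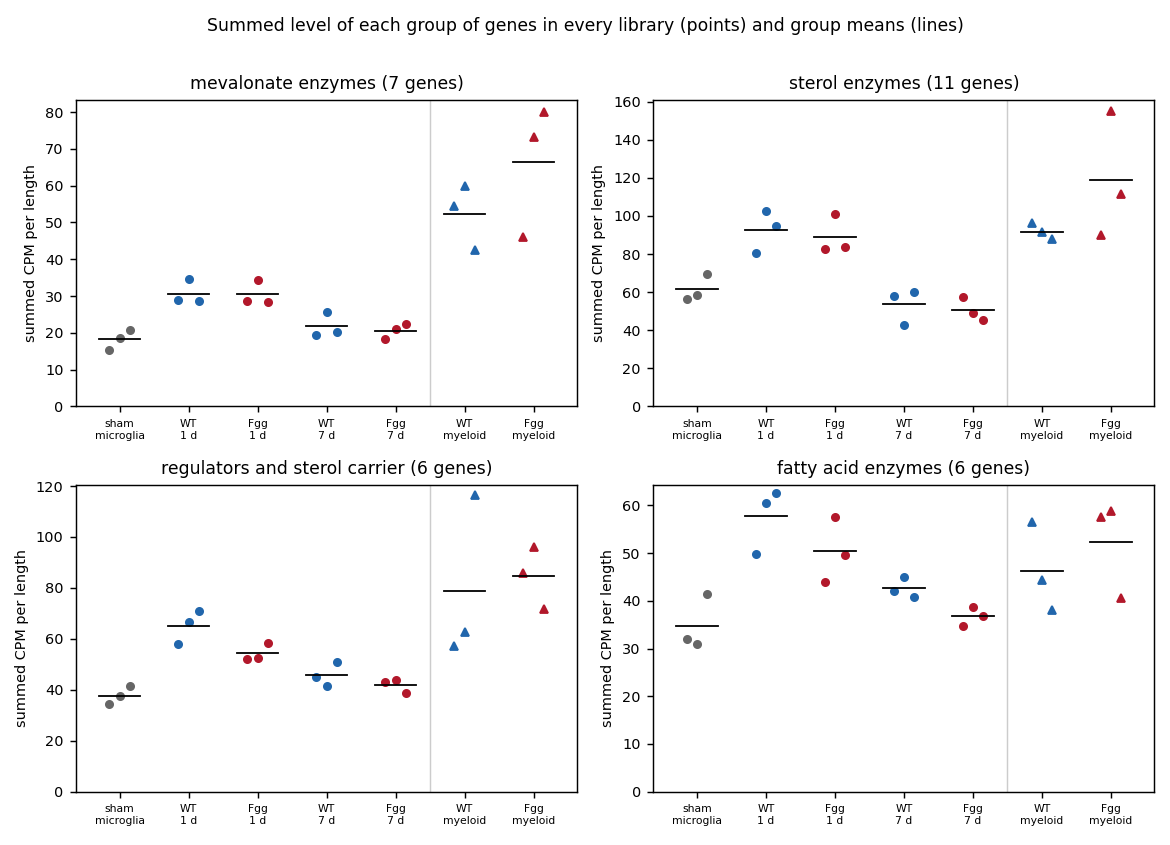
Summed CPM with gene length divided out (axis from 0) of 4 groups of members in every library, with symbols and colours as in the plot of single members and lines for group means. Sterol enzymes summed to 56.6 to 69.3 CPM in sham controls and 80.3 to 103 CPM in WT microglia at 1 d, and the high WT myeloid point among the regulators comes from Scap in 1 library.

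Infiltrating myeloid cells were compared with microglia of the same genotype at 1 d. In WT mice, 1 member was higher in the infiltrating cells and 2 were lower, against 7.56% and 8.11% of all genes. Srebf2 had 12.1, 15 and 12.2 CPM in the infiltrating cells and 4.96, 7.56 and 6.56 CPM in microglia (log2 fold change 1.04 ± 0.23 (SE), adjusted p = 0.00313). Dhcr7, which makes cholesterol in the last step of its branch, had 3.36, 3.63 and 2.84 CPM against 7.94, 9.34 and 9.87 CPM (-1.46 ± 0.34 (SE), adjusted p = 0.00503), and Insig2 had 4.09, 7.85 and 3.83 CPM against 11, 12.7 and 13.5 CPM (-1.25 ± 0.34 (SE), adjusted p = 0.0147). The populations did not overlap for any of these 3 genes. The members' median was 0.19 against 0 over all genes, and 0.03 without WT infiltrating replicate 1. With the stricter filter the median of all genes was -0.05. Scap had 4.76, 7.16 and 53.1 CPM in the 3 WT infiltrating libraries, so replicate 3 stood far from the others for this gene. DESeq2's test called 8 members and 21.5% of all genes, a fit of the compared groups 6, and a stricter count filter 5. Over all genes the fit of the compared groups called 2863 and the stricter filter 4257, against 3732.

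In Fgg γ390–396A mice, 7 members were higher in infiltrating cells than in microglia and 1 was lower, against 9.33% and 12.1% of all genes. Higher were Idi1, Srebf2, Insig1, Sqle, Fdft1, Cyp51 and Srebf1, and Insig2 was lower. The median of the members was 0.55 while that of all genes was -0.13, a centre that moved by 0.12 with DESeq2's size factors. Idi1 had 14.7, 32.3 and 32.1 CPM in infiltrating cells and 4.07, 4.88 and 3.5 CPM in microglia (log2 fold change 2.67 ± 0.40 (SE), adjusted p = 8.54e-05). Srebf2 had 16.8, 14.7 and 10.7 CPM against 5.3, 6.04 and 5.87 CPM (1.29 ± 0.23 (SE), adjusted p = 0.00039), and Insig1 had 12.7, 31.2 and 23.6 CPM against 10.8, 8.96 and 7.07 CPM (1.33 ± 0.30 (SE), adjusted p = 0.00349). These 3 genes were higher in each infiltrating library than in any microglia library of the genotype. Insig2 had 4.16, 4.61 and 6.72 CPM against 7.62, 9.72 and 14.9 CPM (-1.05 ± 0.34 (SE), adjusted p = 0.0303). For Sqle, Fdft1, Cyp51 and Srebf1 the log2 fold changes were 1.33, 1.33, 1.08 and 1.06, and DESeq2's test called 13 members and 27.3% of all genes. The Srebf2 call held without any single library in both genotypes, while the Insig2 call was lost in 4 of 6 such fits in WT and 3 of 6 in Fgg γ390–396A mice, and that of Srebf1 in 3 of 6. No fatty acid enzyme was called in either genotype, and Fasn had 2.95, 2.84 and 2.21 CPM in WT and 9.94, 3.5 and 3.16 CPM in Fgg γ390–396A infiltrating cells. Neutrophil markers summed to 3451 to 12941 CPM in WT and 2491 to 5654 CPM in Fgg γ390–396A infiltrating libraries. Border macrophage markers summed to 1003 to 1903 CPM and 1145 to 1910 CPM there, against 120 to 216 CPM and 97.6 to 127 CPM in microglia at 1 d. Dissociation response genes summed to 1345 to 2237 CPM and 746 to 1611 CPM, against 300.1 to 400.1 CPM and 74.8 to 275 CPM. The part of these cells and genes in the differences was not tested.

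Between genotypes edgeR called 0 members at an adjusted p under 0.1 in each of 3 comparisons. In microglia at 1 d, 0.0546% of all genes were called, 0 members had an unadjusted p under 0.05, against 5.07% of all genes, and the members' median log2 fold change was -0.16, or -0.26 without WT replicate 1, -0.06 without Fgg γ390–396A replicate 1 and -0.04 without WT replicate 2. The smallest p belonged to Scd2, at 20.7, 27.2 and 31.8 CPM in WT and 17.7, 23.2 and 17.9 CPM in Fgg γ390–396A microglia (log2 fold change -0.44 ± 0.23 (SE), adjusted p = 0.89), and to Srebf1 (-0.54 ± 0.31 (SE), adjusted p = 0.89). Both overlapped between genotypes. In microglia at 7 d, 0.0378% of all genes were called, 2 members had an unadjusted p under 0.05, against 3.34% of all genes, and the median was -0.04, or -0.08 without Fgg γ390–396A 7 d replicate 3 and -0.02 without WT 7 d replicate 1. Sqle had 1.29, 1.06 and 1.62 CPM in WT and 0.666, 0.467 and 0.609 CPM in Fgg γ390–396A microglia, without overlap (log2 fold change -1.18 ± 0.34 (SE), adjusted p = 1). Scd2 had 20.9, 21.1 and 21.5 CPM and 15.4, 12.2 and 16.6 CPM, also without overlap (-0.52 ± 0.23 (SE), adjusted p = 1). DESeq2's test called 0 members at either time. The summed microglia markers did not overlap between genotypes at either time, and the part of that difference in these comparisons was not tested.

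In infiltrating cells, 0.495% of all genes were called between genotypes, and 5 members had an unadjusted p under 0.05, against 11.5% of all genes. The members' median log2 fold change was 0.33 against 0 over all genes, and 22 of 30 were positive, with Acly and Insig2 also positive under DESeq2's size factors. Of all genes 40.9% were positive. Without Fgg γ390–396A replicate 2 the median was 0.17. Idi1 had 12.9, 11.3 and 7.17 CPM in WT and 14.7, 32.3 and 32.1 CPM in Fgg γ390–396A cells (log2 fold change 1.33 ± 0.39 (SE), adjusted p = 0.188). Cyp51 had 8.3, 7.95 and 7.4 CPM and 8.76, 19 and 14.1 CPM (0.83 ± 0.27 (SE), adjusted p = 0.251). Both genes were higher in each Fgg γ390–396A library than in any WT library, but neither passed. DESeq2's test called 3 members, Idi1, Cyp51 and Lss (adjusted p = 0.0216, 0.0392 and 0.0442), where it called 4.63% of all genes. Fgg γ390–396A replicate 1 was the lowest of its group for Idi1, Cyp51 and Fdps, and without it edgeR called 2 members, Idi1 (adjusted p = 0.0525) and Cyp51 (0.0469), and 1.54% of all genes. The difference between genotype effects in infiltrating cells and in microglia at 1 d was called for 0 members (0.0462% of all genes), with 3 at an unadjusted p under 0.05, against 8.37% of all genes, and 0 called by DESeq2's test, and was 1.66 ± 0.54 (SE), adjusted p = 0.493 for Idi1. The difference between genotype effects at 7 d and 1 d was also called for 0 members and for 0 of all genes, with 1 member at an unadjusted p under 0.05, against 2.74% of all genes, Sqle (-1.0 ± 0.46 (SE), adjusted p = 1), and 0 called by DESeq2's test.

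Fgg lies on chromosome 3, as do 3 members, Fdps (chr3:89093588-89101959), Pmvk (chr3:89454541-89469013) and Elovl6 (chr3:129532355-129638495, all GRCm38). None was called between genotypes. In infiltrating cells Fdps had 12.5, 9.95 and 8.88 CPM in WT and 4.43, 13.4 and 12 CPM in Fgg γ390–396A mice, Pmvk 5.85, 14.5 and 7.12 CPM and 6.87, 4.81 and 10.6 CPM, and Elovl6 2.56, 0.737 and 0.451 CPM and 1.49, 0.913 and 1.74 CPM. In microglia the log2 fold changes between genotypes were 0.07 for Fdps, 0.000458 for Pmvk and -0.73 for Elovl6 at 1 d, and 0.60, -0.09 and -0.35 at 7 d.

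**Figure D4:**
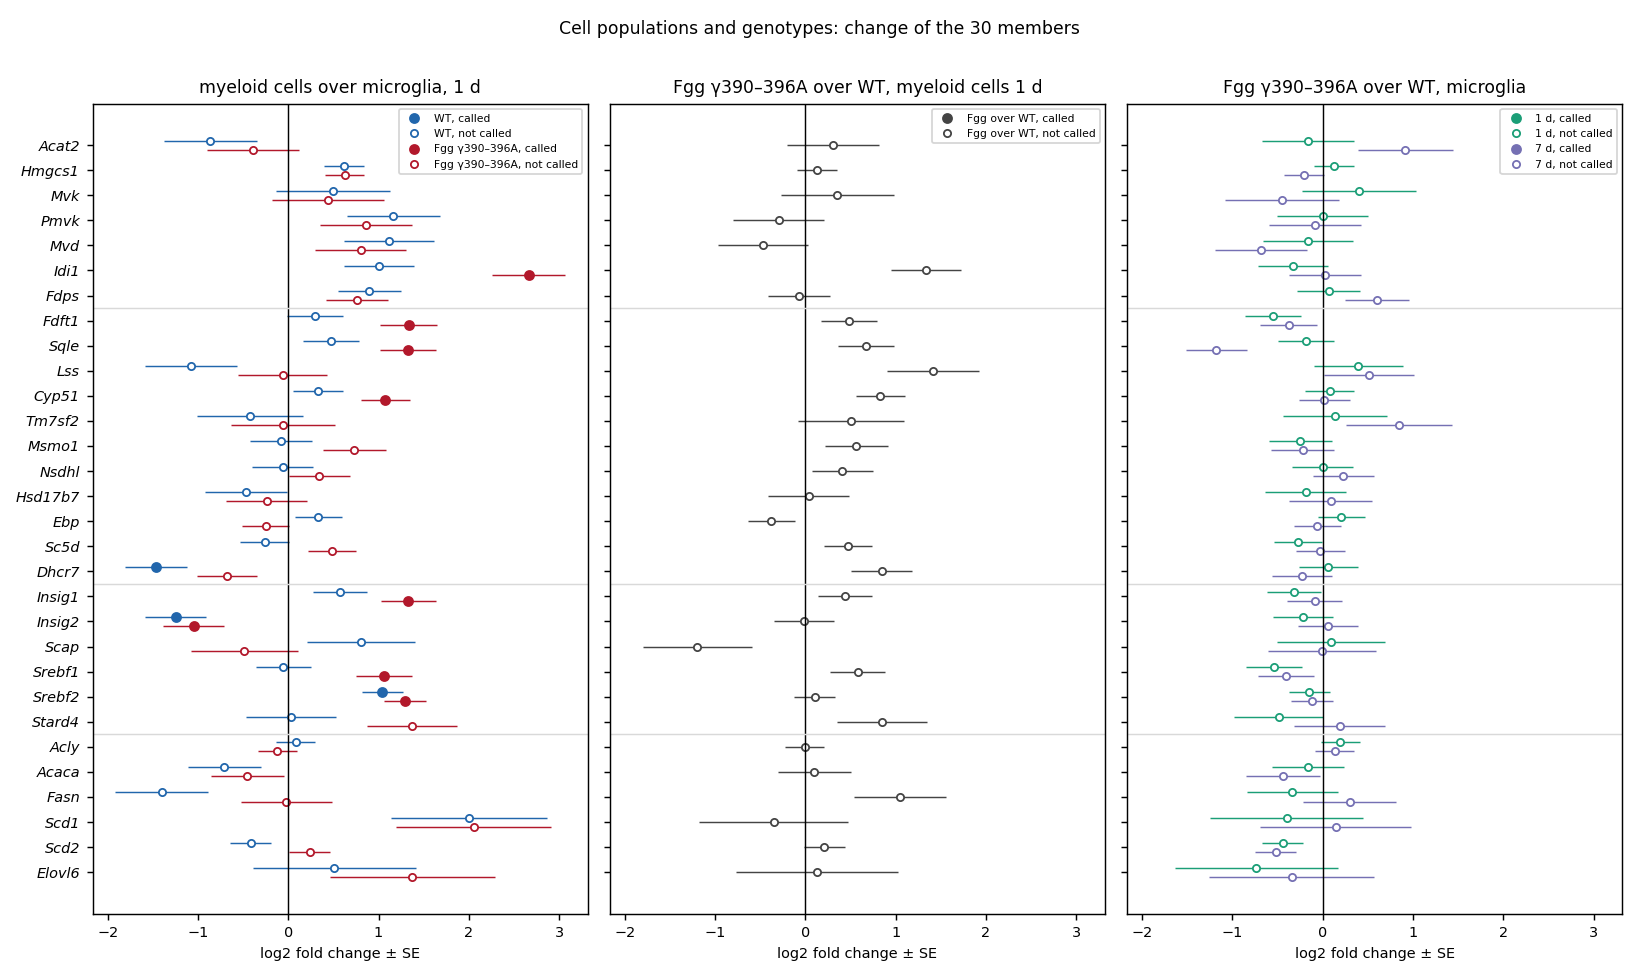
Log2 fold change with its standard error for the 30 members, in 3 panels: infiltrating myeloid cells over microglia at 1 d in each genotype, Fgg γ390–396A over WT in infiltrating cells, and Fgg γ390–396A over WT in microglia at 1 d and 7 d; filled points are called (adjusted p under 0.05 in the first panel, 0.1 in the others). The first panel has 3 filled points for WT and 8 for Fgg γ390–396A, and the genotype panels have none.

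Over all comparisons 17 of the 30 members were called at least once and 13 never were: Hmgcs1, Mvk, Pmvk and Mvd of the mevalonate branch, Lss, Tm7sf2, Msmo1, Nsdhl and Ebp of the sterol branch, Scap, and Acly, Scd1 and Elovl6 of fatty acid synthesis. Acly had log2 fold changes from -0.36 to 0.26 over the 11 comparisons. Elovl6 was scarce and its error was wide: it had a log2 fold change of 2.18 ± 0.96 (SE), adjusted p = 0.142 in WT microglia at 1 d, from 0.127, 0.304 and 0.151 CPM to 0.954, 0.724 and 0.976 CPM.

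A second list held 18 genes of SREBP processing and further lipid synthesis. In WT microglia at 1 d, 3 of them were higher than in sham controls and 2 lower, against 10.7% and 5.97% of all genes. Elovl1, which makes very long fatty acids, had 36.8, 40.8 and 42 CPM in sham controls and 57.1, 86 and 79 CPM (log2 fold change 0.89 ± 0.17 (SE), adjusted p = 0.00077), and Elovl5, which lengthens polyunsaturated ones, had 19.6, 20 and 20.7 CPM and 30.3, 33 and 28.2 CPM (0.60 ± 0.20 (SE), adjusted p = 0.049). Tmem97, a sterol-responsive membrane protein, had 6.34, 6.15 and 5.96 CPM and 13.3, 19.3 and 14.7 CPM (1.36 ± 0.43 (SE), adjusted p = 0.0357). Lower were Lpin1, a phosphatidate phosphatase of triglyceride synthesis, at 6.95, 5.77 and 6.59 CPM and 1.15, 0.977 and 0.858 CPM (-2.69 ± 0.45 (SE), adjusted p = 0.000227), and Ggps1, which draws farnesyl diphosphate away from sterols, with a log2 fold change of -0.76 ± 0.21 (SE), adjusted p = 0.0147. The list's median was 0.11. In Fgg γ390–396A microglia 2 were higher, Elovl1 and Elovl5, and Lpin1 and Ggps1 were lower, against 7.6% and 2.19% of all genes. Between 1 d and 7 d, Elovl1, Elovl5 and Tmem97 were lower and Lpin1 higher in both genotypes, against 6.6% lower and 3.7% higher of all genes in WT and 4.56% and 1.08% in Fgg γ390–396A mice, and at 7 d none was called against sham controls. Mbtps1 and Mbtps2, the proteases that release the SREBP factors, were not called in any comparison. In infiltrating cells Dgat2, which makes triglyceride, had 10.2, 5.05 and 17.7 CPM in WT against 2.06, 0.181 and 1.05 CPM in microglia (log2 fold change 3.32 ± 0.77 (SE), adjusted p = 0.00482), and it was also higher in Fgg γ390–396A mice. Fads1, Gpam and Lpcat3 were lower in both genotypes and Tmem97 was lower in WT mice. The shares of all genes there were 7.56% higher and 8.11% lower in WT and 9.33% and 12.1% in Fgg γ390–396A mice. None of the 18 was called between genotypes.

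Some members share sequence with other genes, so how reads were shared out among them is uncertain. Fdft1 overlaps Ctsb on the opposite strand with 774 identical bases, and the table holds 381776 counts for Ctsb against 3925 for Fdft1. Among other overlaps of annotated gene spans, Mvd lies under Gm20388 on the opposite strand (9822 bases, 3017 against 1916 counts). Cyp51 overlaps Akap9 on the opposite strand (166 bases, 26479 against 4356 counts). Tm7sf2 overlaps Vps51 on its own strand (532 bases, 14693 against 1419 counts). Acat2 shares 445 bases at 98.7% identity with Tcp1 (37103 against 1463 counts). Fdps, Idi1, Acaca and Elovl6 have near-identical pseudogenes, and Scd1 and Scd2 are 95.5% identical over 623 bases.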

How the data were processed

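Microglia and infiltrating myeloid cells were sorted, and RNA was amplified with the Ovation RNA-seq V2 kit, which does not mark strand. The authors processed reads with nf-core/rnaseq and salmon against GRCm38, and the deposited expected counts were scaled from TPM so that gene length is divided out. These were rounded to whole numbers. Genes with at least 5 counts over the 21 libraries (23815) were fitted together in edgeR 4.0.16 (R 4.3.3, limma 3.58.1) with TMM factors (0.735 to 1.55) and the quasi-likelihood test, with Benjamini-Hochberg adjustment over all genes. CPM used total counts times the TMM factor, and standard errors came from the fold change and F statistic. The common coefficient of biological variation was 0.643. DESeq2 1.42.0, other scalings, filters and sample sets, a replicate block and leaving out each library were the alternatives. The edgeR step was tested on simulated data.

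The members and gene lists were chosen with earlier results of these data known. Named in the text are up to 3 higher and 3 lower members with the smallest adjusted p in each comparison of times or cell populations, every called member or otherwise the 2 with the smallest p between genotypes, the 3 members on chromosome 3, and Hmgcs1, Idi1, Sqle, Cyp51, Srebf1, Srebf2, Insig1, Acly, Fasn and Scd2 throughout; further members named in the text were chosen after their values were seen. Libraries pool brains, and the p-values measure the spread between libraries. Same-numbered libraries were checked for pairing by correlating deviations from group means over 12302 genes: all 3 correlations were above 0.1 (0.372, 0.151 and 0.104) only between genotypes in microglia at 1 d, where the block called 0 members, as the fit without it did.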

Additional observations from a re-analysis of the deposited data

How the results depend on the processing

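Of 113 recomputed counts of called members that kept all libraries, 102 stayed within 1.5 times the count reported. The others were as follows. DESeq2's size factors gave 3 members in Fgg γ390–396A microglia at 1 d against sham controls. In WT microglia at 1 d against sham controls, fitting the compared groups alone gave 5. From 1 d to 7 d, microglia libraries alone gave 9 in WT and 4 in Fgg γ390–396A mice, and DESeq2's test gave 9 and 4. For infiltrating cells against microglia in WT mice, edgeR's stricter filter gave 5, the compared groups alone 6 and DESeq2's test 8; in Fgg γ390–396A mice DESeq2's test gave 13. Between genotypes in infiltrating cells, DESeq2's test gave 3. The calls over all genes in these fits, given above or with each comparison, changed as well, and the cause was not tested.

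Leaving out 1 library at a time gave 4 to 11 members in WT and 3 to 4 in Fgg γ390–396A microglia at 1 d against sham controls, and 0 to 1 in WT microglia at 7 d. It gave 3 to 6 in WT and 1 to 3 in Fgg γ390–396A microglia from 1 d to 7 d, 2 to 3 and 7 to 10 for infiltrating cells against microglia, and 0 to 2 between genotypes in infiltrating cells. Calls over all genes moved too. Against sham controls at 1 d they ran from 2810 to 4079 in WT (3970 with all libraries) and 1452 to 2535 in Fgg γ390–396A microglia (2333). Between genotypes in infiltrating cells they ran from 67 to 720 (118).

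No called difference changed sign. With DESeq2's size factors uncalled values near 0 changed sign, in comparisons of times, cell populations and genotypes. Among the genes named between genotypes, Pmvk in microglia at 1 d was -0.04 with DESeq2's size factors (-0.0379), with its test (-0.0384) and with the stricter filter (-0.0371), -0.0450 with the replicate block, -0.0255 with the compared groups and -0.00407 with microglia alone, and ran from -0.34 to 0.22 without single libraries (-0.17 without WT replicate 3). At 7 d it was 0.00677 with the block and ran from -0.44 to 0.83 (0.08 without Fgg γ390–396A replicate 1), and in infiltrating cells from -0.65 to 0.25. Fdps in infiltrating cells ran from -0.34 to 0.34 (0.08 without WT replicate 1). Elovl6 ran from -0.27 to 1.21 there (-0.07 without WT replicate 2 or Fgg γ390–396A replicate 3) and from -0.93 to 1.18 in microglia at 7 d.

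With the replicate block the count from 1 d to 7 d in WT microglia was 4 in place of 5, and no other count of called members changed. Outside the genotype comparison in microglia at 1 d, no comparison had all 3 correlations over 0.1, which cannot show that libraries were unpaired. Between infiltrating cells and microglia of WT mice they were 0.134, 0.166 and 0.0227. In all, 5 of 33 pairs had a correlation over 0.1, and 11 of 21 libraries correlated best with their own number. The mean was 0.0216 for equal and -0.0108 for unequal numbers. Whether microglia and infiltrating libraries of the same number came from the same brains is not stated in the paper. Members under 1 CPM, such as Elovl6 and Scd1, lie within a few times the level of 3 counts, which limits what can be seen of them.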

Other observations

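Another list held 10 genes of sterol sensing and disposal: the receptors Nr1h2 and Nr1h3 (LXR), their targets Abca1, Abcg1 and Mylip, the enzymes Ch25h and Cyp27a1, which make oxysterols, Soat1, which esterifies cholesterol, and Npc1 and Npc2, which release it from lysosomes. In WT microglia at 1 d, 3 were higher than in sham controls and 2 lower, against 10.7% and 5.97% of all genes by edgeR's quasi-likelihood test, and the list's median log2 fold change was 0.22. Ch25h had 0.51, 0 and 0.176 CPM in sham controls, 34.3, 70.8 and 58.2 CPM in WT and 22.9, 26 and 42 CPM in Fgg γ390–396A microglia at 1 d, and 12.7, 10.4 and 9.55 CPM and 4.71, 1.44 and 4.16 CPM at 7 d. Every injured library was above every sham library, and Ch25h was called higher than in sham controls in all 4 comparisons. Soat1 had 56.6, 68.3 and 66.7 CPM in sham controls, 101, 146 and 145 CPM in WT microglia at 1 d and 127, 122 and 118 CPM at 7 d (log2 fold changes 1.03 and 0.94, adjusted p = 0.00232 and 0.022). Abca1, the cholesterol exporter, was called at 1 d in WT microglia, from 34.1, 42.2 and 54 CPM to 55.7, 97.3 and 110.1 CPM. Mylip and Cyp27a1 were lower at 1 d, with log2 fold changes of -0.98 and -2.30.

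In WT microglia at 7 d, 3 of the list were higher than in sham controls, Ch25h, Soat1 and Npc2, and 0 were lower, against 2.42% of all genes called higher. Npc2 had 71.2, 80.4 and 95.6 CPM in sham controls and 166, 148 and 162 CPM in WT microglia at 7 d (log2 fold change 0.94 ± 0.16 (SE), adjusted p = 0.0019), and Abcg1 was higher at 7 d than at 1 d in WT microglia, at 70.6, 58.8 and 67.6 CPM against 31.2, 32.4 and 36.5 CPM (0.98 ± 0.20 (SE), adjusted p = 0.00279). In infiltrating cells Nr1h3 had 8.59, 5.05 and 7.94 CPM in WT and 10.8, 10.1 and 9.24 CPM in Fgg γ390–396A mice and stayed at or below 1.24 CPM in all microglia libraries. None of the 10 was called between genotypes.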
